A study of Mus musculus with 2 samples.

Results

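RIKEN full-length mouse cDNA clones from adult testis libraries were measured in mammary gland on 1 Agilent array of each of 2 genotypes. A clone was taken as a testis clone when its probe name began with a code-1700, code-4921, code-4922, code-4930, code-4931, code-4932 or code-4933 clone name. These codes stand for adult testis libraries in the RIKEN collection, which is background knowledge and is not written in the array files. The rule found 1141 probes, 1 per clone, of 15675 RIKEN probes and 97836 non-control probes in all. The other 14534 RIKEN probes, whose clones carry any other code, served as the comparison. A spot marked as an outlier by the scanner software was left out, after which 1138 testis clones, 14480 other RIKEN probes and 97373 probes in all had a usable spot on both arrays.

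The control gland came from a female miR-34a fl/fl mouse, in which the gene is floxed and intact. The knockout gland came from a female miR-34a -/- mouse, made by crossing the floxed line to mice with mammary-specific Cre. Cells of the gland outside the reach of the Cre keep the gene, and the labels name neither its promoter nor the age of the mice. The study set out to find mRNAs and lncRNAs that differ between these glands. With 1 array per genotype no difference between the genotypes could be tested, and the values describe these 2 arrays, which lay on 1 slide. Whole glands hold many cell types, and fewer cells of a type cannot be told apart from less RNA per cell. The tissue could be checked by name on few probes, and the deletion on none, since no probe was named for Mir34a. Of 14 basal epithelial markers 1 had a named probe, Itgb4, which was well above background on both arrays (signals of 191 and 82.6). Of 29 luminal markers 1 had one, Esr1, which was on neither (9.32 and 4.33).

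Testis holds the most diverse transcriptome of the mouse organs. Meiotic and postmeiotic germ cells transcribe much of the genome under open chromatin, and many cDNAs cloned from testis are spliced or single-exon noncoding transcripts with no known function. Some of them start head to head with a protein-coding gene, from a promoter that both share. Promoters rich in CpG dinucleotides are commonly active in many tissues, and CpG-poor promoters more often in few.

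Promoters of 6 testis clones' genes are shown because detection in the gland went along with the CpG content of the promoter. They were chosen after the values were seen. Each window runs from 250 bases before to 50 bases after the start of the gene, is written 5' to 3' along its strand, and comes from RefSeq on GRCm38.p6, with every CpG in capitals. 4930456A14Rik (chr7:126502184-126502483, plus strand, 26 CpG, the first of 2 starts in the table) begins 9 bases from the opposite-strand start of Atxn2l, which encodes an RNA-binding protein of stress granules. Rbm46os (chr3:82904227-82904526, plus strand, 21 CpG) begins 503 bases from that of Lrat, which makes retinyl esters. Arl4aos (chr12:40037827-40038126, plus strand, 55 CpG) begins 90 bases from that of Arl4a, a small GTPase gene. All 3 were well above background on both arrays.
4930456A14Rik: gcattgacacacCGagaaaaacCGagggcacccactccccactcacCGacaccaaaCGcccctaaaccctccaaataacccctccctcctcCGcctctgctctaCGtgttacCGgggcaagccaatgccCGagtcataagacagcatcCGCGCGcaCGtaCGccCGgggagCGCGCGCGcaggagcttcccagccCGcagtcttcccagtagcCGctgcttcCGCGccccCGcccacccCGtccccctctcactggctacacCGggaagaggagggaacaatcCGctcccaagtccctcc
Rbm46os: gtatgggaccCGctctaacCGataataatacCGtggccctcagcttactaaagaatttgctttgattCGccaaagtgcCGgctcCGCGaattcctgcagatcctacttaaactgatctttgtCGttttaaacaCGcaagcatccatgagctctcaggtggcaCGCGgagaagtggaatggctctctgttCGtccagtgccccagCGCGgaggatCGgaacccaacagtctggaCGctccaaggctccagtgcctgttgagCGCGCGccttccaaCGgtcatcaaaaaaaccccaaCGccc
Arl4aos: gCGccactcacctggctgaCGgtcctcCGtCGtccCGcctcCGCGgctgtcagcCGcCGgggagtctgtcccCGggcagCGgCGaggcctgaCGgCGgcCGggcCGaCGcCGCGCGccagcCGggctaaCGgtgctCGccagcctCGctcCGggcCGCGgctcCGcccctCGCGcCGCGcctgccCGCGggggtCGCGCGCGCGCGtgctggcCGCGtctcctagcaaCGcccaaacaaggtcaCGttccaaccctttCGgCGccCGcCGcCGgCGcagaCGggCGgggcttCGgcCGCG

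The first pair below had clones measured on neither array. 1700072B07Rik (chr9:58370254-58370553, plus strand, 1 CpG) begins 49 bases from the opposite-strand start of Tbc1d21, a gene of sperm tail assembly. 4930515L19Rik (chrX:46328862-46329161, minus strand, 0 CpG) begins 96 bases from that of Actrt1, which encodes an actin-related protein of the sperm head. 4930588K23Rik (chr16:18606412-18606711, plus strand, 2 CpG) has no opposite-strand partner within 1000 bases. It had the largest increase in the knockout gland of all testis clones measured on both arrays.
1700072B07Rik: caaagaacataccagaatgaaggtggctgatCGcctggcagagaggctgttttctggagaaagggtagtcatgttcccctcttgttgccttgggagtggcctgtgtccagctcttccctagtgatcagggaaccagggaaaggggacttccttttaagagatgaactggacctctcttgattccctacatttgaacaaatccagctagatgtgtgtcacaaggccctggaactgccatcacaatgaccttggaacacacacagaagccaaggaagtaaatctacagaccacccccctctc
4930515L19Rik: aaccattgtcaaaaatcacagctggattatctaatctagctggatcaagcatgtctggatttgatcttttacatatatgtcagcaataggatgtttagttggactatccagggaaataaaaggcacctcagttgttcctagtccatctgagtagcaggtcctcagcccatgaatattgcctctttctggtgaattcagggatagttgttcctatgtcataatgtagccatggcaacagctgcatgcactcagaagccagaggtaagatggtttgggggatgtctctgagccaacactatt
4930588K23Rik: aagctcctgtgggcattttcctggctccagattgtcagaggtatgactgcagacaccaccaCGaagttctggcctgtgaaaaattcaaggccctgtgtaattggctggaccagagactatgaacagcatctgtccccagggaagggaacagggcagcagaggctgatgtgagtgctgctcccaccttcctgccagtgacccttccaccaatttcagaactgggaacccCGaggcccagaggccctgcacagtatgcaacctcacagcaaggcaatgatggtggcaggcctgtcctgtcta

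More testis clones gave signal in mammary gland than not, but they did so less often than other RIKEN clones. A probe was counted as measured on an array if each of its 1 or 2 usable spots carried the scanner software's mark for a signal well above background. On the control array 58.4% of testis clones were measured, against 78.7% of other RIKEN probes. On the knockout array the shares were 56.4% and 76.3%. On both arrays 601 of 1138 testis clones were measured, or 52.8% (exact 95% binomial interval 49.9 to 55.7%). Of the other RIKEN probes 10746 of 14480, or 74.2% (73.5 to 74.9%), were measured on both. The intervals cover the counting of probes only, since all probes share the same 2 RNA samples.

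Of the remaining testis clones, 384 (33.7%) were measured on neither array, against 17.8% of other RIKEN probes. Another 44 (3.87%) were measured on the control array only and 29 (2.55%) on the knockout array only, against 3.83% and 1.83% of other RIKEN probes, and 80 had spots that disagreed on an array. None of 579 usable negative control spots on the control array and none of 581 on the knockout array was well above background. The median processed signal of a testis clone spot was 26.9 for the control and 22.1 for the knockout. Spots of other RIKEN clones had medians of 82.9 and 59.8, and negative control spots 3.02 and 2.73. The limit of detection lay near a signal of 15. Clone 4930517O19 was the dimmest testis clone measured on the control array, at a signal of 14.7, and 4930548G14Rik the brightest that was not, at 19.15.

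The lower share was present at each number of spots and each cDNA length. Among clones with 1 spot 52.6% of testis clones and 74.6% of other RIKEN clones were measured on both arrays, and among those with 2 spots 53.0% and 73.2%. Testis cDNAs were shorter, with a median of 1045 bases (213 to 6606) against 2162.5 bases. Within each of 4 length ranges, however, the share of testis clones lay between 50.4 and 56.0% and that of other RIKEN clones between 72.8 and 76.5%.

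The lower share was seen in every large testis library. The largest, the code-4930 library, had 293 of 548 clones measured on both arrays (53.5%). The code-1700 library had 138 of 266 (51.9%), code-4933 64 of 125 (51.2%), code-4932 45 of 86 (52.3%) and code-4921 31 of 63 (49.2%). These 5 codes held the 5 lowest shares of 77 RIKEN codes with at least 50 probes. The next were code-C030 with 56.4% and code-9330 with 56.9%, whose intervals overlap those of the testis codes. Of the small testis libraries, code-4931 had 26 of 40 clones (65.0%) and code-4922 had 4 of 10.

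**Figure D1:**
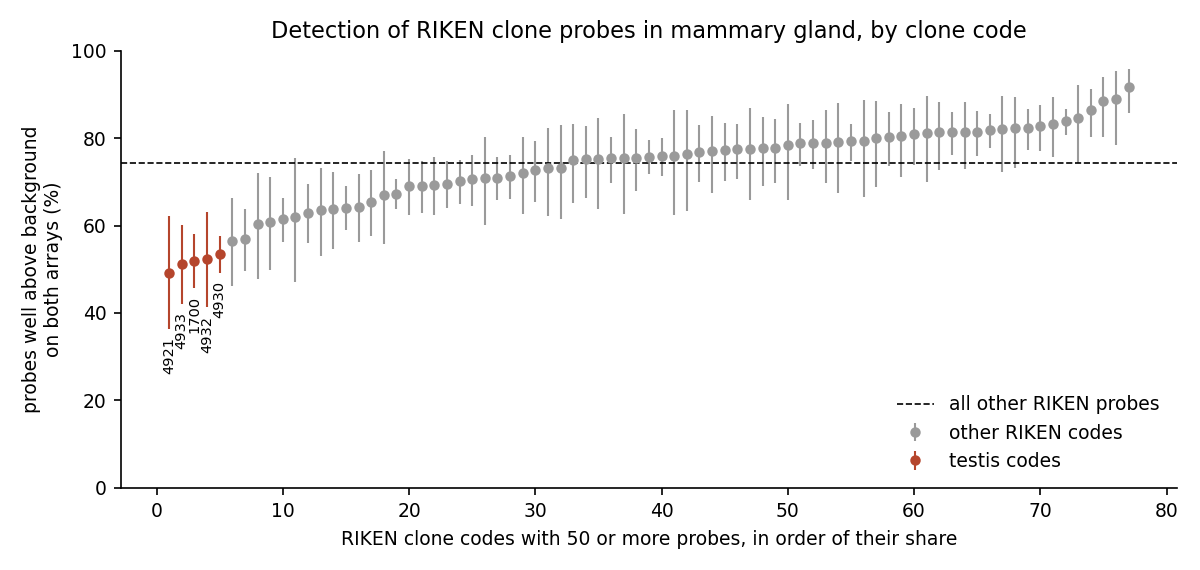
Share of probes well above background on both arrays (percent, vertical axis) for 77 RIKEN clone codes with at least 50 probes, in order of their share; bars are exact 95% binomial intervals and the dashed line is the share over all other RIKEN probes, 74.2%. The 5 testis codes, in red, lie at the low end, between 49.2 and 53.5%.

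What the clones' genes are divided the testis set further. Through the clone name, 392 testis clones matched 385 genes of the RefSeq table of GRCm38.p6, 240 by the current symbol and 152 by a synonym. Of these clones 269 belonged to lncRNA genes, 111 to protein-coding genes and 12 to other genes, 4 clones matched several genes and 742 matched none. Protein-coding testis clones were measured on both arrays in 65 of 111 cases (58.6%), against 477 of 569 (83.8%) for other RIKEN clones. For lncRNA clones the counts were 131 of 269 (48.7%) and 163 of 276 (59.1%). The unmatched testis clones resembled the whole set, with 53.1% measured on both.

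Where the lncRNA gene lies was associated with whether its clone was seen. Of 171 testis lncRNA clones whose gene neither overlaps a protein-coding gene nor has a known shared start with one, 69 (40.4%, interval 32.9 to 48.1%) were measured on both arrays. Of 72 whose gene overlaps a protein-coding gene, 45 (62.5%, 50.3 to 73.6%) were. Of 26 that begin within 1000 bases of a protein-coding gene's start on the other strand, 17 (65.4%, 44.3 to 82.8%) were. The strand of the probes is not given in the sources used here, so signal of a clone and of the gene that overlaps it cannot be told apart. A shared start was looked for only in genes with a promoter window. The first class therefore includes genes whose start was not checked, and the second may include some. Other RIKEN lncRNA clones showed shares of 50.4%, 64.1% and 79.4% in the same order.

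The CpG content of the promoter went the same way. The CpG ratio is the number of CpG in the 300 base window, divided by the number that its C and G content would give by chance. It could be computed for 306 testis clones, from the first listed window where a gene had several. At a ratio of 0.6 or more, 66 of 92 clones (71.7%, interval 61.4 to 80.6%) were measured on both arrays. At a ratio of 0.4 to 0.6 the count was 13 of 36 (36.1%, 20.8 to 53.8%), and under 0.4 it was 78 of 178 (43.8%, 36.4 to 51.4%). Testis clones of the highest class came nearest to the other RIKEN clones, of which 85.3% of that class were measured, 73.6% of the middle class and 59.6% of the lowest. The testis clones' genes had CpG-poor promoters, with a median ratio of 0.29 over 300 genes, against 0.68 over 648 genes of other RIKEN clones and 0.38 over all 32851 promoters of the table. Within the testis set the median was 0.40 for 156 genes measured on both arrays and 0.22 for 104 genes measured on neither.

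The same division was seen among lncRNA clones, with 28 of 38 measured at a ratio of 0.6 or more and 66 of 153 under 0.4. Among protein-coding clones the counts were 38 of 54 and 12 of 25. At 0.4 to 0.6 they were 9 of 25 lncRNA and 4 of 11 protein-coding clones. At 0.6 or more, testis and other RIKEN lncRNA clones had near-equal shares, 73.7% and 73.5%, and protein-coding clones 70.4% and 87.8%. Under 0.4 the shares were 43.1% and 54.1% for lncRNA clones, and 48.0% and 67.1% for protein-coding clones. Motifs in the windows were searched on both strands. The cyclic AMP response element TGACGTCA, the site of the spermatid regulator CREM, was found in 2.33% of the testis clones' promoters, 2.47% of those of other RIKEN clones and 1.79% of all promoters. TATAAA was found in 11.3%, 7.87% and 13.6%, and GTTGCC, part of the X-box bound by RFX factors of cilium and sperm genes, in 15.7%, 13.1% and 12.5%.

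**Figure D2:**
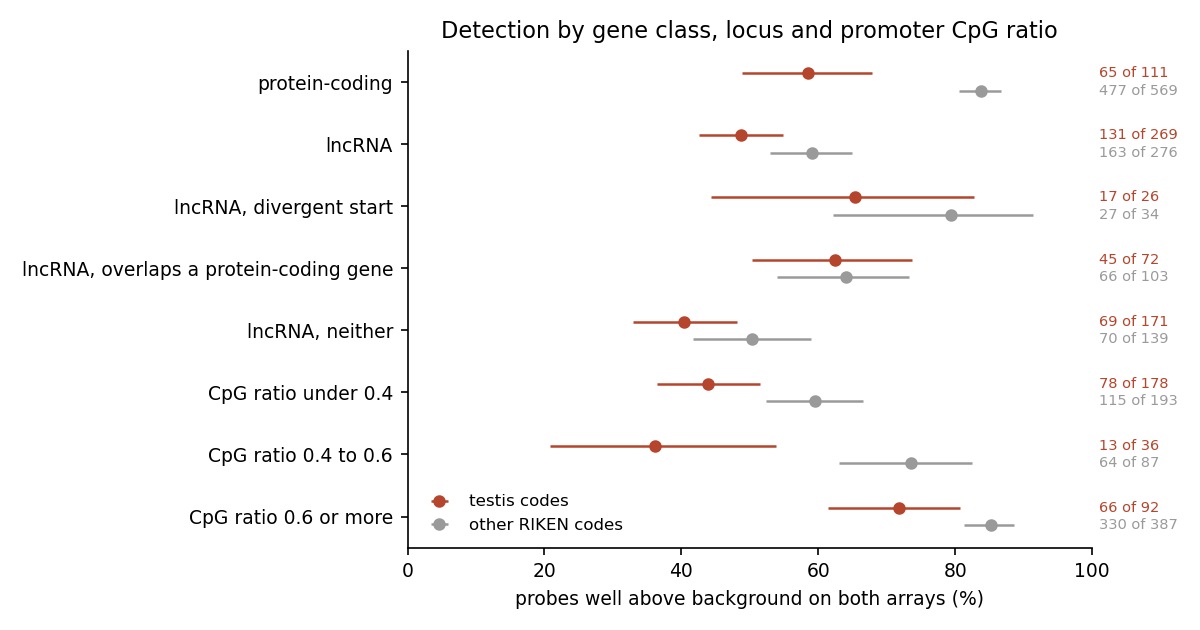
Share of probes well above background on both arrays (percent, horizontal axis) by gene class, by the locus of lncRNA genes and by the CpG ratio of the promoter, for testis clones (red) and other RIKEN clones (grey); bars are exact 95% binomial intervals and the counts stand at the right. Testis clones lie lowest for lncRNA genes with no overlap or known shared start, at 40.4%, and for CpG ratios of 0.4 to 0.6, at 36.1%. They lie highest for ratios of 0.6 or more, at 71.7%.

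Clones that share a start with a gene listed as protein-coding in the RefSeq table showed the same contrast, though few of them were CpG-poor. There were 34 such testis clones of 33 genes, protein-coding ones included, with a median distance of 142.5 bases between the starts, and 23 were measured on both arrays. Of the 25 with a CpG ratio of 0.6 or more, 20 were measured on both, of the 2 at 0.4 to 0.6, 2 were, and of the 7 under 0.4, 1 was. Testis clones without a known shared start had 46 of 67 at 0.6 or more and 77 of 171 under 0.4. Other RIKEN clones with a shared start had 71 of 82 and 1 of 1. 4930456A14Rik, beside Atxn2l, had a signal of 643 in the control and 516 in the knockout. The CpG-poor partners of Actrt1 (4930515L19Rik, signals 2.97 and 6.97), Tbc1d21 (1700072B07Rik, 3.07 and 3.79) and Saxo1 (Saxo1os, 2.93 and 2.63) were not well above background on either array. These 3 partners encode proteins of sperm, as does Acrv1, whose CpG-poor neighbour 1700027I24Rik had signals of 15.1 and 14.5 and spots that disagreed. Of the other CpG-poor ones, Atxn7l1os2 was measured on the control array only, 4933406F09Rik on the knockout array only, and 1700110I07Rik on both. A CpG-rich start did not ensure detection: Catsperd, which encodes a subunit of the sperm calcium channel and begins 144 bases from Lonp1, had a ratio of 0.90 and signals of 12.2 and 10.97, not well above background.

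Protein-coding clones covered both general and germ-line genes. The 10 brightest, by the mean level over both arrays, belonged to Hydin, C130026I21Rik, Rbbp6, Diablo, Ppp6r3, Mtch2, Tmem214, Nat8f3, Efl1 and Ccny. Rbbp6 encodes a ubiquitin ligase of mRNA 3' end processing, Diablo a mitochondrial activator of caspases, Mtch2 an insertase of the outer mitochondrial membrane and Efl1 a GTPase of ribosome maturation. Rbbp6 (clone 4933422O15) had signals of 1039.5 and 782, Diablo (1700006L01) 727 and 914, and Mtch2 (4930539J07) 556 and 658, on the control and knockout arrays.

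Germ-line genes were found among the clones measured on neither array. They are named here for their known roles and after the values were seen, so no share follows from them. Msh4, a MutS homologue of meiotic crossovers (clone 4930485C04), had signals of 7.25 and 6.07. Mei4, needed for meiotic DNA breaks (4930486G11), had 3.51 and 2.94, and Adcy10, the soluble adenylyl cyclase of sperm (4930431D04), 2.91 and 2.63. Others of the same kind were measured on both arrays. Phf7, a histone reader of spermatids whose start lies 174 bases from Bap1 (1700006H01, CpG ratio 1.19), had 26.0 and 32.6. Cntd1, a factor of crossover maturation that begins 255 bases from Coa3 (4921513J16), had 129.9 and 135.

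Genes of motile cilia, which also build the sperm tail, were represented by 4 clones from a list of 55 cilium genes, of their own or a flanking gene. Of these, 2 were measured on both arrays. The clone 1700034M11 of Hydin, the gene of a central-pair protein of the ciliary axoneme, was the brightest protein-coding testis clone, with signals of 1641 and 1543. Another Hydin clone, 4930545D19, had signals of 16.4 and 3.76 and was measured on the control array only, so the probes of this gene do not give 1 level. Cfap77, which encodes a protein inside axonemal microtubules, had 43.1 and 58.9. The lists of spermatogonial, spermatid and Sertoli or Leydig genes were matched by 4 clones, 1 of a listed gene itself (Msh4) and 3 of genes that neighbour or overlap Acrv1, Ccdc54 or Fshr. None of the 4 was measured on both arrays, against 52.8% of all testis clones, and the clone beside Acrv1 had spots that disagreed.

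Levels of the measured testis clones were low. A level is the mean log2 processed signal of a probe's spots minus the 75th percentile of its array, so that 0 marks the 75th percentile of all probes. Over the 601 clones measured on both arrays the median level was -1.81 in the control and -1.64 in the knockout. Other RIKEN probes had medians of -1.25 and -1.26, and all probes -0.88 on each. The testis clones ranged from -4.47 to 6.04 on the control array. Signals of different probes also depend on how well each probe hybridises, so their order is not an order of transcript amounts. Above the 75th percentile on both arrays lay 80 of 1138 testis clones (7.03%), against 16.2% of other RIKEN probes. Over the 601 clones the levels of the 2 arrays had a Spearman rho of 0.94 across clones, which are not independent samples.

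A few clones were very bright. The brightest, 4930586H24, had control spots of 20772 and 22614 and knockout spots of 22241 and 23147. It was followed by 4930441F12 (11974 and 13462 on the control and knockout arrays), 4930417B17 (10421 and 11969), 4931427D12 (8840 and 7750) and 1700105P06 (4574 and 4401). None of these 5 matched a single gene of the table. The next were 4930557B21, 1700124I24, 4930550C20, 4930518I15 and 4930546B01, with signals of 1635 to 3835. Of the 12 brightest, 1 had a named gene: clone 4933439C20 of the pseudogene Pisd-ps3, with 3254 and 1738. The last of them was 4932415E21, with 2459 and 2171. At least 16 times the 75th percentile on both arrays were 4 testis clones (0.351%), near the share of other RIKEN probes (0.380%).

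The brightest testis lncRNAs with a name were 4931402G19Rik, which overlaps Ganc and Capn3, 4931431B13Rik, which overlaps Itgad, and 4930470O06Rik. Clone 4931402G19 had levels of 2.90 and 2.70, 4931431B13 had 2.67 and 2.60, and 4930470O06 had 2.05 and 2.12. A second clone of 4931431B13Rik, 1700108I23, had levels of -3.75 and -4.01. In all, 7 genes had 2 testis clones each, and in 3 of them both clones fell in the same class of detection. The clones 4930444E23 and 4930564K09 of Rbm46os were among them, with signals of 501 and 572 for the first and 375 and 465 for the second.

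Scaled to the 75th percentile, the testis clones were on balance slightly higher in the knockout gland. The median knockout minus control difference over the 601 clones was 0.18 on the log2 scale. Above 0 lay 389 of them (64.7%), against 52.9% of other RIKEN probes and 58.6% of all probes measured on both arrays. The median was 0.04 over other RIKEN probes and 0.10 over all probes measured on both arrays. The sign rests on the scaling: with 9 spike-in probes set equal on both arrays every difference drops by 0.36, and the median becomes -0.18. After loess scaling it was 0.09. The gap of 0.14 between the medians of testis clones and other RIKEN probes does not depend on a shift of a whole array, and lay between 0.09 and 0.17 in 13 alternatives. With no second gland of either genotype the spread between glands is unknown, and no test of this gap was possible.

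The gap was seen at every level of signal. In 5 ranges of mean level, from the dimmest to the brightest, the testis medians were 0.24, 0.13, 0.17, 0.08 and 0.24, and those of other RIKEN probes 0.10, 0.05, less than 0.01 in size in the third and the fourth, and 0.06. By library, the medians of code-4921, code-1700, code-4932 and code-4930 clones were 0.24, 0.23, 0.19 and 0.19, which are ranks 1, 2, 4 and 7 from the top of 77 codes. Code-4933 clones, with 0.04, were at rank 39. The small libraries lay lower, with medians of 0.03 over 26 code-4931 clones and -0.54 over 4 code-4922 clones. The other 72 codes had medians from -0.21 to 0.20. By gene class, protein-coding testis and other RIKEN clones had medians of 0.14 and -0.01. For lncRNA clones the medians were 0.20 and 0.11, and for unmatched clones 0.18 and 0.04. By promoter CpG ratio and by locus the gap was not general. At a CpG ratio under 0.4 the medians of testis and other RIKEN clones were 0.140 and 0.137. They were 0.19 and 0.04 at 0.4 to 0.6, and 0.22 and -0.02 at 0.6 or more. For lncRNA clones overlapping a protein-coding gene they were -0.002 and 0.05. Those sharing a start with one had 0.19 and 0.15, and the remaining lncRNA clones 0.26 and 0.10.

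**Figure D3:**
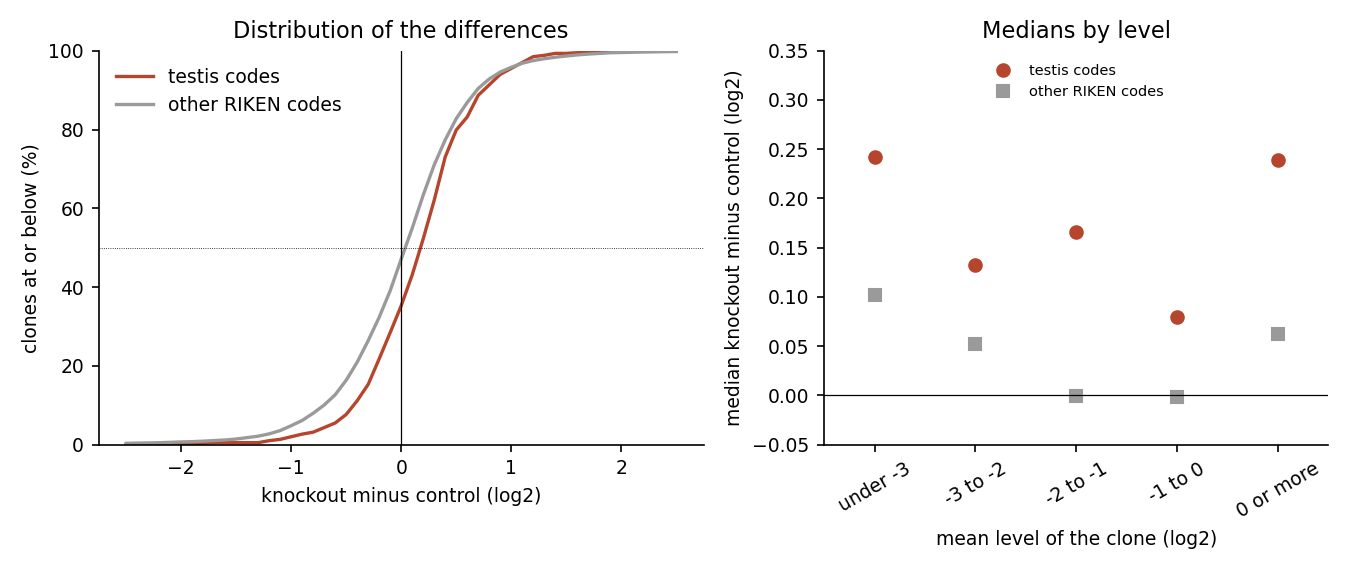
Knockout minus control differences (log2) of testis clones (red, n = 601) and other RIKEN clones (grey, n = 10746) measured on both arrays: left, the percentage of clones at or below each difference; right, the median difference in 5 ranges of mean level. The testis curve is shifted to the right around its median of 0.18, against 0.04, and each testis median on the right lies above the other; with the spike-in probes set equal all values drop by 0.36 and the medians of both sets fall below 0.

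At least 2-fold higher in the knockout gland were 27 of the 601 clones, or 4.49%, where 4.45% of all probes and 4.21% of other RIKEN probes passed the same limit. At least 2-fold lower were 12 clones, or 2.0%, against 4.54% of all probes and 4.8% of other RIKEN probes. The share of increases was thus near the background, and that of decreases below it; with the spike-in probes set equal, 5 clones (0.832%) passed upward and 32 (5.32%) downward, against 1.82% and 9.61% of all probes and 1.80% and 11.4% of other RIKEN probes. After normexp, a model-based background correction, 5 (0.832%) passed upward and 3 (0.499%) downward, against 1.89% and 2.23% of all probes and 1.43% and 1.46% of other RIKEN probes. Under both settings the share of increases was below that of both comparison sets. Of the 27, 8 belonged to lncRNA genes, 2 to protein-coding genes and 17 matched no gene. Of the 12, 3 were lncRNAs, 2 protein-coding and 7 unmatched. On both arrays 11 of the increases and 6 of the decreases had 2 spots. In each of these the spots of 1 array lay outside the range of the other. The 2-fold limit made this likely beforehand, since the median standard deviation between 2 spots of a testis clone was 0.13 on the log2 scale. Around the limit, 4921507H08 with a difference of 1.004 lay just inside it and 4933425E08 with 0.99 just outside. On the lower side these were 4930533P14Rik with -1.002 and 1700003G13 (Lncbate3) with -0.99.

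The largest increase was that of the lncRNA 4930588K23Rik, whose CpG-poor promoter is shown above and which lies between Gm35369 and the platelet receptor gene Gp1bb. Its control spots read 67.8 and 79.7, and its knockout spots 223 and 250.1. After scaling the levels were -2.16 and -0.03, a difference of 2.13 (4.38-fold). After normexp it was 1.48. Clone 4930546B01, which matched no gene, was bright on both arrays and went from a signal of 1635 to 3692, a difference of 1.62 on 1 spot each. Clone 4930545G17, also unmatched, went from 277 to 594 (1.55). The lncRNA 4930405L22Rik, beside Lcorl, had signals of 119 and 216 (1.31), and 4921525D07Rik, beside the cadherin gene Cdh19, 460.0 and 760.4 (1.17).

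Unmatched clones made up the rest of the 10 named increases. Those with 2 spots were 1700123E23, with control spots of 191 and 197 and knockout spots of 305 and 321, and 4932408L12, with 139.9 and 166 against 239 and 253. Both differed by 1.14. Clones 4930447J10 (107 and 178), 4930415K05 (308 and 510.1) and 4930519J05 (149 and 239.8) had differences of 1.19, 1.18 and 1.14. Arl4aos (clone 4930555J06) was dimmer, with 35.8 on the control and 100.3 on the knockout array on 1 spot each, and its difference of 1.93 was second among the clones measured on both arrays. It fell outside the rule for named clones, which asked for a level above the median of measured probes, and was named after its value was seen.

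Of the decreases, 5 reached that level. Clone 1700020M01, unmatched, had control spots of 444 and 497 and knockout spots of 80.8 and 88.3, and its difference was -2.03 (4.08-fold lower). Clone 4922505H16, unmatched and on 1 spot, went from 429 to 79.2 (-1.99). Clone 4932411O03, unmatched, had 187 and 272 against 43.5 and 54.9 (-1.76). Clone 4930583K21 of Nat8f3, a gene of the N-acetyltransferase 8 family, had 851 and 934 against 258 and 274 (-1.30). After normexp the difference of 4932411O03 was -0.98. The lncRNA 4930478L05Rik, which overlaps D16Ertd472e, had 314 and 108 (-1.097). In all 5 the control spots lay above the knockout spots, which the choice of clones at least 2-fold lower made likely beforehand.

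**Figure D4:**
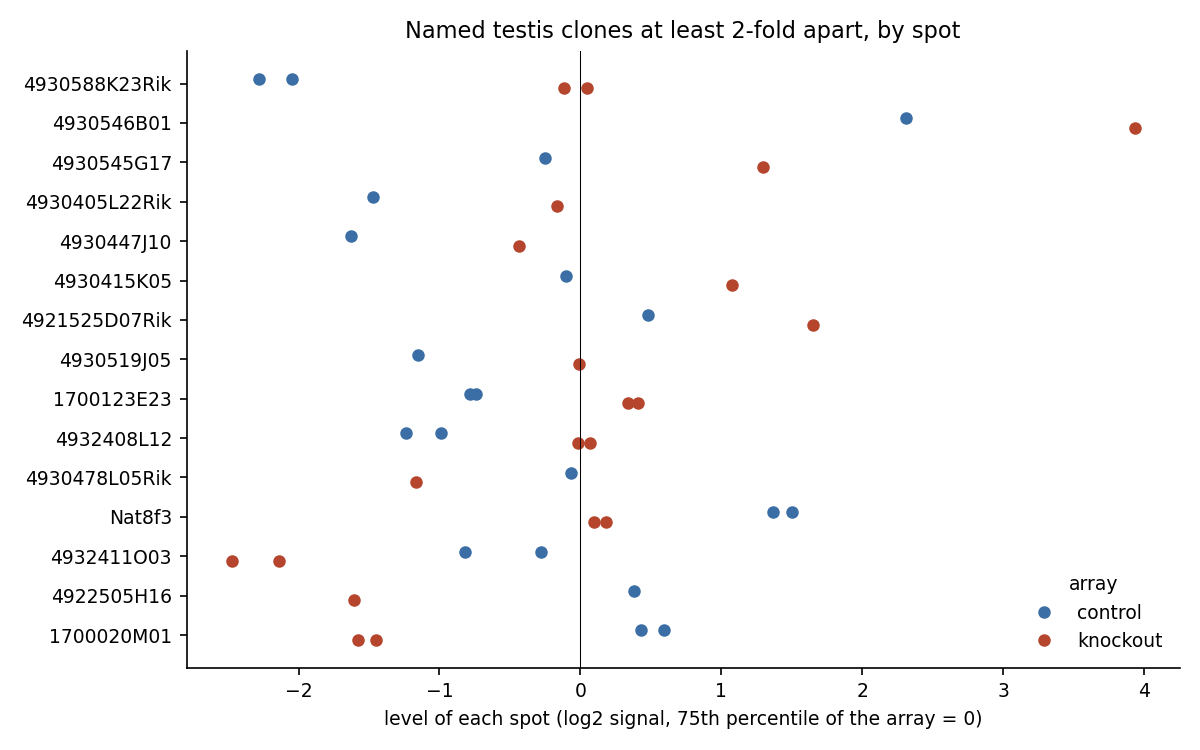
Level of each usable spot (log2 signal, with the 75th percentile at 0, horizontal axis) for the 10 named clones at least 2-fold higher and the 5 at least 2-fold lower in the knockout gland; blue, control array; red, knockout array. The colours do not overlap within a clone, which the choice of clones at least 2-fold apart made likely beforehand. The widest steps are those of 4930588K23Rik, with a difference of 2.13, and 1700020M01, with -2.03.

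All 15 named clones kept the sign of their difference in 9 other ways of scaling, background correction and spot averaging. In every one of these, 6 stayed at least 2-fold apart: 4930588K23Rik, 4930546B01, 4930545G17, 1700020M01, 4922505H16 and Nat8f3. With the spike-in probes set equal the differences of 4930405L22Rik, 4930447J10, 4930415K05, 4921525D07Rik, 4930519J05, 1700123E23 and 4932408L12 lay between 0.78 and 0.96, under the limit of 2-fold. The 15 clones were chosen for differences of at least 2-fold on the same 2 arrays. A kept sign was therefore likely beforehand and does not stand in for a replicate.

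Among the 65 protein-coding clones measured on both arrays, 2 passed the 2-fold limit upward and 2 downward (3.08% each), against 3.77% and 5.24% of protein-coding clones of other RIKEN codes. Adarb1, which encodes an adenosine deaminase that edits RNA (clone 1700057H01), had 40.4 on the control and 76.9 on the knockout array (1.37). Fbxw8, which encodes an F-box protein of a ubiquitin ligase (4930438M06), had 146 and 229 (1.097). On the lower side stood Nat8f3 and Rttn, which encodes a centriole protein (4921538A15), with 56.7 and 20.4 (-1.03). All but Nat8f3 dropped under 2-fold after normexp, with 0.78 for Adarb1, 0.79 for Fbxw8 and -0.08 for Rttn, and Fbxw8 did so with the spike-in probes set equal (0.74).

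**Figure D5:**
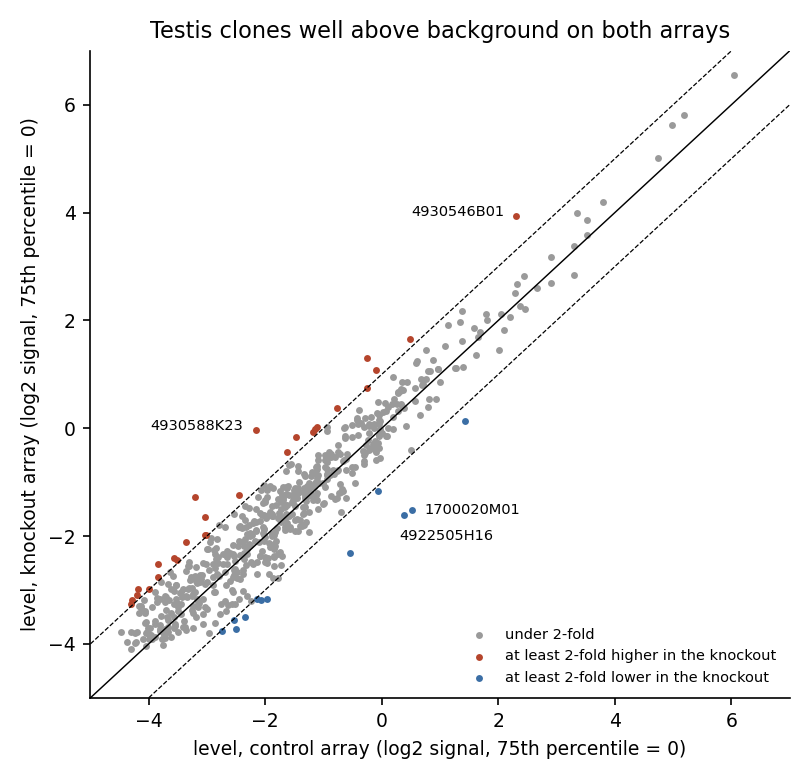
Levels (log2 signal, with the 75th percentile at 0) of the 601 testis clones measured on both arrays, control on the horizontal and knockout on the vertical axis; the solid line marks equal levels and the dashed lines 2-fold. Most clones lie within the dashed lines, 27 lie on or above them (red) and 12 on or below (blue); with the spike-in probes set equal the knockout levels drop by 0.36 and the counts become 5 and 32.

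Clones measured on 1 array only have no fold, and the smallest fold that their values allow was taken from the lowest level counted as well above background on the array that missed them, or from the clone's own level there if higher. On the knockout array only were 29 testis clones, or 2.55% of 1138, against 1.08% of all probes. Most of them, 25, had 1 spot on each array. Among probes with 1 spot the shares were 4.78% of testis clones and 2.67% of all probes. Among those with 2 spots they were 0.650% and 0.681%, with no excess of testis clones. The bounds below were not split by spots. Of these 29, 11 had a bound of at least 2-fold, which is 0.967% of all testis clones against 0.374% of all probes and 0.552% of other RIKEN probes. The signal of clone 4930445H10 was 3.0 in the control and 59.9 in the knockout, a bound of at least 5.70-fold higher. The gene 4931422A03Rik, which overlaps the ubiquitin ligase gene Fbxo3, was at least 4.67-fold higher, with 8.51 and 49.1. Clone 4921518L19 was at least 3.79-fold higher, 4930486I03Rik, which overlaps Pkhd1, at least 2.90-fold, and 1700044K19 at least 2.88-fold.

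On the control array only were 44 testis clones, or 3.87% of 1138, against 2.52% of all probes. Among probes with 1 spot the shares were 5.35% and 4.26%, and among those with 2 spots 2.60% and 2.09%. Of these 44, 8 had a bound of at least 2-fold, or 0.703% of all testis clones against 0.691% of all probes and 0.905% of other RIKEN probes. The signal of clone 4930503K07 was 73.2 in the control and 11.04 in the knockout, a bound of at least 4.06-fold lower. The next were 4930572J10 (at least 3.58-fold lower), 4933415P11 (3.07), 4933436P19 (2.89) and 4930452L12 (2.53). None of these 5 matched a gene. Bounds of this kind rest on the background correction: after normexp 1 clone of the knockout array only and 0 of the control array only had a bound of at least 2-fold. No share over all probes stands beside these counts after normexp.

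Other probes of the same gene gave a check of single clones. For 38 testis clones the arrays held another probe, of a RIKEN clone with another code or of a RefSeq transcript, in 39 pairs. Of 31 pairs in which each probe was measured on both arrays or on neither, 15 had both probes measured and 6 had neither. In 3 the testis clone alone was measured and in 7 the other probe alone. Of the 15, 9 had differences of the same sign, and the median distance between their differences was 0.51. Over the 15 pairs the Spearman rho between the probes was 0.36 for the differences and -0.05 for the control levels. Probes of the same gene thus often did not give the same level.

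For Nat8f3 and 4933406I18Rik a difference of at least 2-fold in the testis clone had the same sign on the other probe. For Nat8f3 the difference was -1.30 with the testis clone and -0.998 with clone 4833414A14. For Pisd-ps3 it was under 2-fold with the testis clone, at -0.46, and -1.17 with a transcript probe. The lncRNA 4933406I18Rik (clone 4933406I18), which lies beside the adipocyte phosphodiesterase gene Pde3b, had control spots of 54.8 and 66.0 and knockout spots of 99.3 and 105, a difference of 1.21 that was 0.66 after normexp and 0.85 with the spike-in probes set equal. Its transcript probe showed 2.11. A RIKEN clone of Pde3b itself, 9830102A01, had signals of 68.4 and 302 and a difference of 2.59. Pde3b is the sole gene of the list of 28 adipocyte genes with a named probe, so the fat content of the 2 glands could not be set beside this result, and its part in the result was not tested. For 4930570G19Rik, by contrast, the testis clone showed 0.92 and 2 transcript probes 1.80 and -0.04.

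The remaining lists touched few testis clones. The clone of 4930473O22Rik, beside the matrix gene Lum, had signals of 28.5 and 32.1 and a difference of 0.62, and that of 4930573O16Rik, which overlaps the muscle gene Neb, 23.6 and 26.9 and 0.64. The clone of 1700066N21Rik, in the casein locus overlapping Csn3, had 6.62 and 6.63 with spots that disagreed on detection. The lists of basal epithelium, endothelium, blood and immune cells, keratinocytes, common reference genes and miR-34a targets held no gene of a testis clone or of its neighbours.

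Probes of testis clones whose genes lie on chromosome Y gave signal in these female glands, which carry no chromosome Y. Of 3 such clones, 2 had all spots well above background. The clone of 1700040F15Rik had control spots of 68.2 and 78.9 and knockout spots of 48.5 and 66.8. That of 4932431L22Rik had 34.1 and 42.1, and 31.8 and 42.7. That of 1700020D14Rik, with means of 3.43 and 2.89, lay near the negative controls. Genes of the Y long arm belong to large families of near-identical copies, and the probe sequences are not given in the sources used here, so these values cannot be tied to 1 locus. A signal well above background on these probes therefore does not show a transcript of the named Y gene. Its source was not tested. On chromosome X, 2 of 6 testis clones were measured on both arrays, against 18 of 22 other RIKEN clones and 52.8% of all testis clones.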

How the data were processed

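Total RNA of 1 control and 1 knockout gland was amplified, labelled with Cy3 and hybridised to 1 array each, per the labels' protocols. The deposited intensity values are the scanner output of Agilent Feature Extraction, with version 11.5.1.1 and build mm9 per the file headers. The submitters' processing notes give version 10.7. The processed signal is a background-subtracted intensity, per the file headers. The authors' deposited table of log2 values equals the mean log2 processed signal minus a constant (8.40 and 7.95) for 99.1% and 99.5% of probes within 0.0001; its column medians are -1.94 and -1.95.

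Here control spots and outlier spots (0.893% and 0.430%) were left out, log2 signals were averaged over the spots of a probe, and each array was scaled by subtracting its 75th percentile (8.36 and 7.92, over 97373 probes). Calls of at least 2-fold rest on size, with no test. No array spot of a testis clone was saturated. Gene names came from RefSeq tables of GRCm38.p6, a build other than mm9, and were used for names and neighbours. The members, gene lists and rules were chosen with earlier results of these data known. Clones were named by rule: the 12 brightest, the 10 largest increases and decreases above the median of measured probes, the 5 largest bounds, the 10 brightest protein-coding clones, and those beside genes of the lists. Python 3.11.15, pandas 2.3.3, R 4.3.3 and limma 3.58.1 were used.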

Additional observations from a re-analysis of the deposited data

How the results depend on the processing

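Precision is limited by 1 array per genotype and by the detection limit, which 384 of 1138 testis clones did not pass on either array. Counting a probe as detected when any spot was well above background gave 62.4%, 60.7% and 56.9% of testis clones (control, knockout, both) and 75.6% of other RIKEN probes on both arrays. The software's mark of a signal significantly above background gave 78.3%, 76.8% and 72.6%, and 87.1%. Probes matched to lncRNA genes alone, an alternative chosen after seeing the data, gave 53.5%, 52.0% and 48.7%, and 59.1%. Scaling to the median of detected probes moved the median levels to -0.93 and -0.76. With the spike-in probes set equal the median difference reversed to -0.18. The counts at least 2-fold higher and lower, 27 and 12 in the report, became 5 and 32 with the spike-in probes, 5 and 3 with normexp, 8 and 4 with no background correction, 105 and 65 with no filter on dim probes, 6 and 1 with a stricter filter, 104 and 33 at 1.5-fold, 1 and 1 at 4-fold, and 12 and 7 without code-4930 clones, where fewer clones were counted. They were 18 and 14 after loess, which moves the share of higher calls. With no background correction 1.33% of testis clones passed upward and 0.666% downward, against 2.56% and 2.67% of all probes. After loess the shares were 2.995% and 2.33%, against 3.41% and 5.3% of all probes. Counts with other filters, fold limits or clone sets have no share over all probes beside them. They therefore show no excess or lack among testis clones. With any spot counted, 44 clones were on the knockout array only. Bounds of at least 2-fold numbered 1, 6 and 30 for the knockout array only with normexp, spike-in probes and any spot, and 0, 15 and 24 for the control array only. These counts of clones on 1 array only also have no share over all probes beside them, and show no excess or lack among testis clones. The cause of these moves was not tested. Loess scaling lowered the median difference from 0.18 to 0.09. No paired analysis was possible with 1 array per genotype.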
